A study of Mus musculus with 6 samples.

Results

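Tef (ENSMUSG00000022389) and Hlf (ENSMUSG00000003949) were followed across the day in disome profiling libraries from mouse liver. They are members of the PAR bZIP family, and 2 of the 3 family members sought were described, out of 8941 genes listed. The third, Dbp (ENSMUSG00000059824), was not among the genes listed and could not be described. The genes were chosen by name, as a family, with the levels of these same libraries at the different times already known. All comparisons of Tef and Hlf between times are therefore descriptions, and no p is given for either gene.

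PAR bZIP proteins are transcription factors with a region rich in proline and acidic residues beside a basic leucine zipper, and they bind as dimers to a DNA element called the D-box. In liver they form an output arm of the circadian clock: the CLOCK-BMAL1 activator acts through E-box elements on genes of the family, and the family in turn acts on genes of drug and lipid metabolism. Tef is thyrotroph embryonic factor and Hlf is hepatic leukemia factor.

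A disome footprint is the piece of messenger RNA shielded from nuclease by a pair of stacked ribosomes. The livers came from male C57BL/6JRj mice aged 11 to 12 weeks that had been held for 2 weeks in 12 h of light and 12 h of dark. They were taken at ZT0, ZT2 and ZT12, in hours after lights on, with no other treatment named. There were 2 libraries per time, each from a pool of lysates of 2 mice, so n counts pools. Every lysate contained cycloheximide, an inhibitor of elongation, and was digested with RNase I. Disome levels stand alone here, with no total RNA or single-ribosome footprints beside them, and changes in transcript amount or translation rate cannot be told apart from changes in stacking. In bulk liver, fewer cells of a type and less RNA per cell cannot be told apart. The liver label was not checked against marker genes, because none of the listed identifiers could be paired with a symbol (0 of 49997 reference genes carried an Ensembl identifier); Tef and Hlf were taken by their identifiers.

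The sequences before the transcription starts of both genes are shown first, since the E-box is the element through which the clock acts on this family. They are the 250 bases before each start in the RefSeq table for GRCm38.p6, 5′ to 3′ along the gene, and both genes were matched by symbol. Tef has 2 annotated starts on chromosome 15, 8741 bases apart, and its windows lie on the plus strand at chr15:81802423-81802672 and chr15:81811164-81811413. Hlf has 1 window, on the minus strand of chromosome 11 at chr11:90390918-90391167. Capitals mark the motifs found.
Tef, first start: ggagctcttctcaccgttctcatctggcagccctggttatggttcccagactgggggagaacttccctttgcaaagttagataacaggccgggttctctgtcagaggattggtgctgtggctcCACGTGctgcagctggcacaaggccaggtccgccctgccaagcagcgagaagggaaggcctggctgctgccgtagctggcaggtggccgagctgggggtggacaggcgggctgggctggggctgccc
Tef, second start: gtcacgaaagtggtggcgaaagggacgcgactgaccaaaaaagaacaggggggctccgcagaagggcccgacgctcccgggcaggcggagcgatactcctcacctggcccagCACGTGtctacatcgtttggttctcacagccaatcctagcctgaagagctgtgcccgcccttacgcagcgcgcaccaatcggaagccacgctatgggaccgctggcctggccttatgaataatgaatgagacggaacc
Hlf: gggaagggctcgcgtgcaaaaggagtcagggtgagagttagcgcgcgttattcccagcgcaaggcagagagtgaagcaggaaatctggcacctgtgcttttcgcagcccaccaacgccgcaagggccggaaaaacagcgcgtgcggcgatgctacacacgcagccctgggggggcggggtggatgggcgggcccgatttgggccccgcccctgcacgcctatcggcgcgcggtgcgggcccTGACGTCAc

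The E-box, searched as CACGTG, which reads the same on both strands, occurred once in each Tef window. It lay at bases -127 to -122 from the first start and at -138 to -133 from the second. The Hlf window did not hold these letters. E-boxes with other letters, or outside the windows, were not searched for, so this does not show that Hlf lacks an E-box. Of 32817 windows of the same length in the table, 6.02% held a CACGTG. The D-box, the element bound by the family itself, was searched on both strands as TTACGTAA and as TTATGTAA, 2 forms that cannot match at the same place on 1 strand. Neither form occurred in the windows of Tef or Hlf, and 0.113% and 0.817% of all windows held them. The half-site AGGTCA, bound by REV-ERB and ROR receptors, was absent from the windows of both genes and present in 14.0% of all windows, counted on either strand. The capitals in the Hlf window mark TGACGTCA, the cAMP response element, at -9 to -2. That motif was added to the search after the windows had been read, and 1.55% of windows held it. A match is a description of the letters and not a measured binding site. The windows were rich in G and C, at 63.6% and 60.4% for Tef and 67.2% for Hlf, against a median of 52.4% over all windows.

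Levels were taken as RPKM, reads per kilobase of gene model scaled per library. Recovered whole reads totalled 12322651 and 11904184 in the ZT12 libraries. All libraries of ZT0 and ZT2 were shallower, at 6346387 to 7845062 reads, so depth differed along with time. The gene model behind the values was 1006 nucleotides for Tef, which is not a whole number of codons, and 885 nucleotides, or 295 codons, for Hlf, against a median of 1329 nucleotides over the 8355 genes whose mean reached 1 RPKM, which are called the tested genes. Both Tef and Hlf were among those 8355 genes. The libraries at ZT2 stood apart in that 97 and 250 genes were listed at 0 there, against 4 in each library at ZT0 and 4 and 52 at ZT12. All intervals on reads below are 95% exact intervals that cover counting error only.

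Tef was high at ZT12 and low at both morning times. At ZT12 it reached 129.8 RPKM in replicate 1 (interval 123.8 to 136.1, from 1711 reads) and 91.1 RPKM in replicate 2 (85.9 to 96.6, from 1132 reads). At ZT0 it was at 9.31 RPKM (7.20 to 11.8, from 66 reads) and 4.90 RPKM (3.47 to 6.73, from 38 reads). At ZT2 it was at 8.70 RPKM (6.53 to 11.3, from 54 reads) and 2.71 RPKM (1.68 to 4.14, from 21 reads). Both ZT12 libraries lay far above all of the other 4, while the libraries of ZT0 and ZT2 overlapped. The lower ZT12 library was 9.79 times the highest library of the other times. Counting Tef, 3 of 8355 genes had a gap at least as wide above all other libraries at ZT12 (0.0359%).

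Placed among the tested genes of each library, Tef stood in the middle or lower part of the distribution in the morning and in its upper part at ZT12. At ZT12 it was above 90.4% of genes in replicate 1 and 87.5% in replicate 2. The shares were 51.6% and 36.1% for the ZT0 replicates and 50.2% and 23.1% for those of ZT2. Out of every 1000000 recovered reads, Tef held 138.8 and 95.1 in the ZT12 libraries, 9.17 and 4.86 in those of ZT0, and 8.51 and 2.68 in those of ZT2. On this scale too, both ZT12 libraries were above the other 4 and the morning times overlapped.

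Hlf had another course, with its low point at ZT2. At ZT0 it was at 19.4 RPKM in replicate 1 (interval 16.1 to 23.2, from 121 reads) and 10.1 RPKM in replicate 2 (7.87 to 12.8, from 69 reads). At ZT2 it was at 2.75 RPKM (1.54 to 4.53, from 15 reads) and 3.37 RPKM (2.14 to 5.06, from 23 reads). At ZT12 it was at 12.7 RPKM (10.7 to 14.9, from 147 reads) and 21.5 RPKM (18.8 to 24.4, from 235 reads). Both ZT2 libraries lay below all of the other 4, and the libraries of ZT0 and ZT12 overlapped. The lowest library of the other times was 3.00 times the higher ZT2 library, and 26 of 8355 genes, Hlf included, had a gap at least as wide below all other libraries at ZT2 (0.311%). Genes listed at 0 were also most frequent in the ZT2 libraries, with 97 in replicate 1 and 250 in replicate 2. Hlf was at 2.75 and 3.37 RPKM in these libraries and Tef at 8.70 and 2.71 RPKM, and the part of the libraries in either level was not tested. Among the tested genes, Hlf passed 21.5% and 28.0% in the ZT2 libraries, 66.6% and 53.6% in those of ZT0, and 59.0% and 69.5% in those of ZT12.

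**Figure D1:**
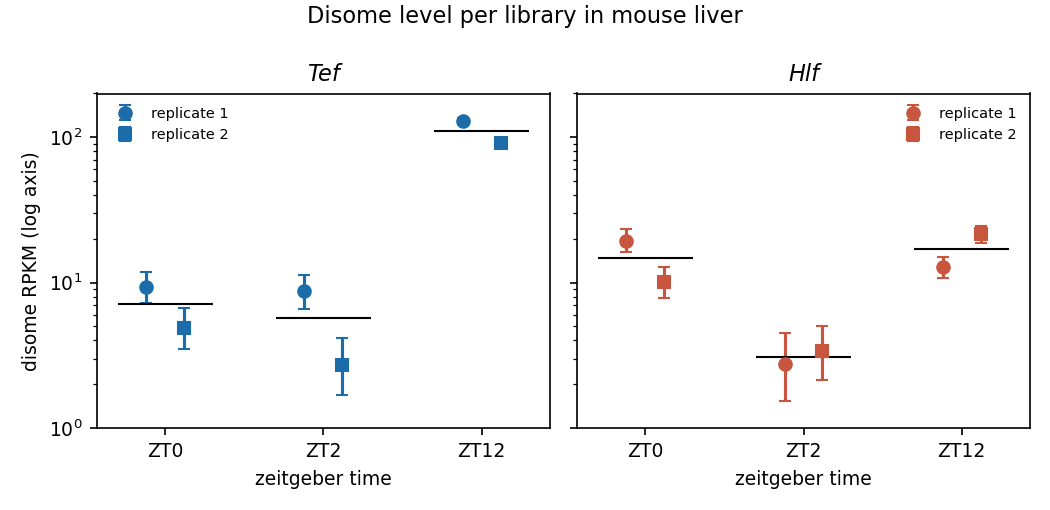
Disome level of Tef (left) and Hlf (right) in RPKM on a log axis at ZT0, ZT2 and ZT12; circles and squares are replicates 1 and 2, bars are 95% exact Poisson intervals of the reads, and black lines are the means of 2 libraries. Tef stands at 129.8 and 91.1 RPKM at ZT12 against at most 9.31 RPKM elsewhere, whereas Hlf is lowest at ZT2, at 2.75 and 3.37 RPKM.

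The spread between pools was wider than counting error in 5 of 6 pairs of replicates. For Tef the higher library was 1.90 times the lower at ZT0 (interval 1.26 to 2.91), 3.21 times at ZT2 (1.91 to 5.60) and 1.42 times at ZT12 (1.32 to 1.54). Replicate 1 was the higher one each time. For Hlf the ratios were 1.92 at ZT0 (1.42 to 2.62), 1.23 at ZT2 (0.614 to 2.53) and 1.70 at ZT12 (1.37 to 2.10), with replicate 1 higher at ZT0 and replicate 2 higher at ZT2 and ZT12. The ZT2 ratio of Hlf was the one whose interval reached 1. Both genes varied more at ZT0 than most genes: the median ratio over tested genes there was 1.17, and 5.41% and 5.23% of genes had a wider ratio than Tef and Hlf. At ZT2, where the median ratio was 1.39, 9.65% of genes had a wider ratio than Tef and 66.1% a wider ratio than Hlf. At ZT12, with a median of 1.25, the shares were 32.0% for Tef and 18.1% for Hlf.

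From ZT0 to ZT2, in the first hours of light, Hlf was 4.83-fold lower and Tef was 1.25-fold lower by the ratio of mean RPKM. Hlf had a mean of 14.8 RPKM ± 6.57 at ZT0 and 3.06 RPKM ± 0.442 at ZT2 (SD, n = 2 each). Its log2 change, here and below a difference of mean log2(RPKM + 1) with the SE of a limma fit over all genes, was -1.90 ± 0.38 (SE), the 34th lowest of 8355. For Tef the means were 7.11 RPKM ± 3.12 and 5.70 RPKM ± 4.23 (SD, n = 2 each). The log2 difference of Tef was smaller than its error, at -0.38 ± 0.49 (SE). Its sign rested on single libraries: it was 0.31 without ZT2 replicate 2 and 0.02 without ZT0 replicate 1, and -1.07 without ZT2 replicate 1. Libraries that did not overlap, with a mean at least 2-fold lower at ZT2, were found for 1 of the 2 genes, Hlf, and for 5.46% of all tested genes. Since Hlf and Tef were chosen with these values known, nothing is read from that count.

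From ZT0 to ZT12, across the light phase, Tef was 15.6-fold higher, and Hlf differed by less than its error. The mean of Tef at ZT12 was 110.5 RPKM ± 27.4 (SD, n = 2), against the 7.11 RPKM of ZT0. On the log2 scale this was 3.82 ± 0.49 (SE), the second highest of 8355 genes. The mean of Hlf at ZT12 was 17.1 RPKM ± 6.24 (SD, n = 2), against 14.8 RPKM before, which is a ratio of 1.16 and 0.22 ± 0.38 (SE) on the log2 scale. The Hlf change took either sign as single libraries were left out, from -0.22 without ZT0 replicate 2 and -0.14 without ZT12 replicate 2 to 0.66 without ZT0 replicate 1 and 0.58 without ZT12 replicate 1. A difference below its SE does not show that the levels of Hlf were equal. Libraries that did not overlap, with a mean at least 2-fold higher at ZT12, were found for 1 of the 2 genes, Tef, and for 5.22% of tested genes.

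From ZT2 to ZT12 both genes were higher, Tef 19.4-fold and Hlf 5.59-fold. The log2 changes were 4.19 ± 0.49 (SE) for Tef, the third highest of 8355 genes, and 2.12 ± 0.38 (SE) for Hlf, the 39th highest. The same ZT2 libraries enter this comparison and that from ZT0 to ZT2, so the values are not separate evidence. Libraries that did not overlap, with a mean at least 2-fold higher at ZT12, were found for both genes (2 of 2) and for 7.35% of tested genes. The low level of Tef at ZT2 came from libraries 3.21-fold apart, and the log2 change of Tef rose to 4.89 when replicate 1 of ZT2 was left out and dropped to 3.50 when replicate 2 was. For Hlf, leaving out single libraries gave 1.76 to 2.48. As background over all tested genes, at an adjusted p under 0.05, limma called 172 genes in this comparison (2.06%). It called 79 between ZT0 and ZT12 (0.946%) and 2 between ZT0 and ZT2 (0.0239%). These counts were unstable and rose or fell when single libraries were left out. In the same order, voom on the recovered reads gave 366, 283 and 9.

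**Figure D2:**
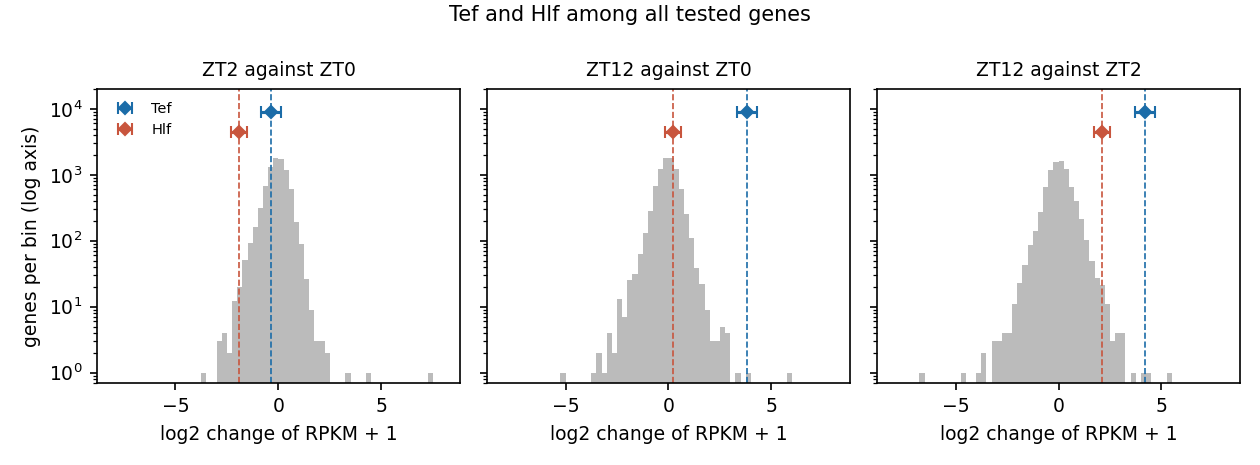
Number of genes per bin of log2 change of RPKM + 1 (log vertical axis) among 8355 tested genes, for the 3 comparisons, with Tef and Hlf marked by diamonds and dashed lines and bars giving their SE. Tef lies in the right tail in both comparisons with ZT12 (3.82 and 4.19), and Hlf lies in the left tail for ZT2 against ZT0 (-1.90) and in the right tail for ZT12 against ZT2 (2.12).

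The disome level of Tef relative to that of Hlf differed between the times. The ratio of Tef to Hlf in RPKM, a level per length, is taken within 1 library, so scaling between libraries does not enter it, but its size rests on the gene model of 1006 nucleotides for Tef. At ZT0 Tef was at 0.480 times Hlf in replicate 1 (interval 0.350 to 0.653) and at 0.484 times in replicate 2 (0.317 to 0.730). At ZT2 the ratios were 3.17 (1.76 to 6.04) and 0.803 (0.423 to 1.52). At ZT12 they were 10.2 (8.65 to 12.2) and 4.24 (3.68 to 4.90). The libraries of the 3 times did not overlap, with ZT0 lowest and ZT12 highest, although the interval of the higher ZT2 library reached past the lower ZT12 library and that of the lower ZT2 library reached below both ZT0 libraries. Hlf had the higher disome RPKM at ZT0, Tef had it at ZT12, and at ZT2 the replicates fell on opposite sides of 1. At ZT0 replicate 1 was higher for both genes and by a like factor, 1.90 for Tef and 1.92 for Hlf, and their ratio was nearly the same in each library. At ZT2 and ZT12 the genes differed between replicates in opposite directions, which widened the spread of the ratio.

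**Figure D3:**
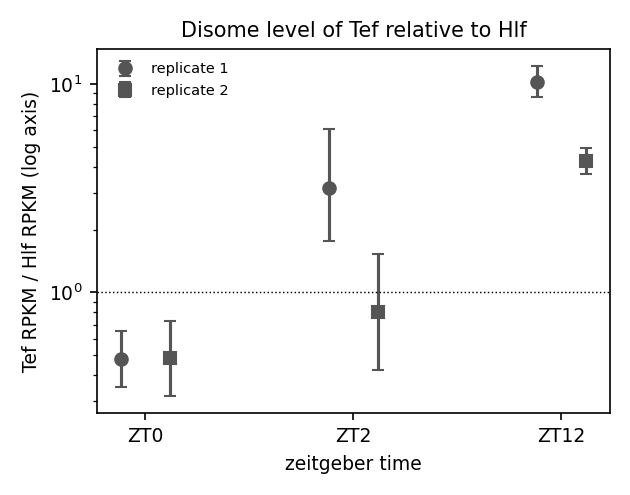
Ratio of Tef RPKM to Hlf RPKM in each library on a log axis, with 95% exact intervals from the reads of both genes; the dotted line marks equal levels and circles and squares are replicates 1 and 2. The ratio is lowest at ZT0 (0.480 and 0.484), spread widely at ZT2 (0.803 and 3.17) and highest at ZT12 (4.24 and 10.2).

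The genes most like each factor over the 6 libraries were sought by Pearson's r of log2(RPKM + 1) among the other 8354 tested genes, as a description, since all points share libraries and depth. For Tef the highest r was 0.9976, with ENSMUSG00000032212, whose ZT12 libraries were at 11.1 and 10.1 RPKM, above 7.30 and 6.37 RPKM in the ZT0 libraries and 7.07 and 6.08 RPKM in the ZT2 libraries. That gene had the shape of the Tef course but little of its size, with a range of 0.77 against 5.14 on the log2 scale. An r of at least 0.95 with Tef was found for 56 genes, and 3 of these spanned at least 50% of the log2 range of Tef. For Hlf the highest r was 0.9941, with ENSMUSG00000037679. Its ZT2 libraries were lowest, at 6.16 and 6.91 RPKM, the ZT0 libraries had 10.5 and 8.95 RPKM and the ZT12 libraries 9.55 and 10.6 RPKM, and its log2 range was 0.70 against 2.59 for Hlf. At least 0.95 with Hlf was reached by 40 genes, of which 15 spanned at least 50% of its range. Between Tef and Hlf themselves r was 0.59, with 6 libraries.

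Each log2 change was also taken with other pseudocounts, scalings and fits and with each library left out. The contrast of Tef between ZT12 and the morning, and that of Hlf between ZT2 and the other times, kept their direction in each. For these contrasts the libraries did not overlap, so neither a pseudocount nor leaving out a library could turn the sign. Their direction is therefore no separate support. Tef from ZT0 to ZT2 and Hlf from ZT0 to ZT12, whose libraries overlapped, changed sign when single libraries were left out.

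**Figure D4:**
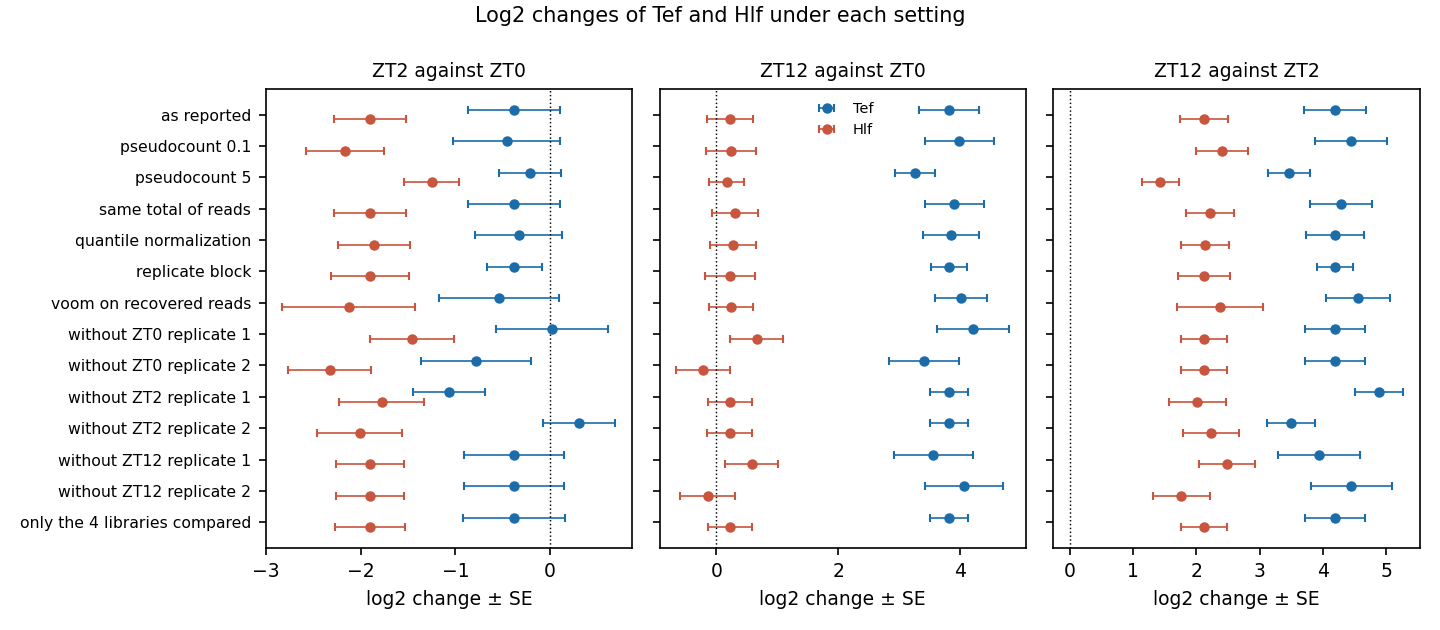
Log2 change ± SE of Tef and Hlf (horizontal axis) under each setting (rows), with 1 panel per pair of times; the dotted line marks no change. Tef stays between 3.26 and 4.22 for ZT12 against ZT0 and between 3.47 and 4.89 for ZT12 against ZT2, while Hlf for ZT12 against ZT0 lies on both sides of 0.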

How the data were processed

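The authors deposited 1 table of RPKM values per disome library, with Ensembl identifiers and no header. The submitters' processing notes name mm10 and GRCm38.p2 as builds and, as tools, Bowtie2 2.3.0, STAR, cutadapt, CASAVA 1.82, edgeR and StringTie. What each did, and how genes were filtered, is not given in the sources used. Tef and Hlf, the settings and the rules for naming genes were chosen with earlier results of these data known. Gene lists and marker lists could not be matched to identifiers and were not run.

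Whole reads were recovered from the steps of the RPKM values, to a relative tolerance of 5e-13, directly for 8939 genes (99.98%) and through the length for 2. The library constants followed the upper quartile of reads per gene (relative factors of 1.000 to 1.011). Fits were made with limma 3.58.1 (R 4.3.3) for genes whose mean reached 1 RPKM. Values entered as log2(RPKM + 1), with all 6 libraries, a mean per time, a variance trend and Benjamini-Hochberg adjustment. The fit left 3 residual degrees of freedom and was tested on simulated data. Alternatives were the pseudocount, the filter, scaling, voom, the replicate number as a block, the 4 libraries compared, and leaving out each library. The nearest gene to Tef and to Hlf was named by the highest Pearson's r. Because identifiers carry no symbols, only the first per gene is printed. Promoter windows were cut to the 250 bases before the start.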

Additional observations from a re-analysis of the deposited data

How the results depend on the processing

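With 2 pools per time and 15 to 235 reads for Hlf and 21 to 1711 for Tef, counting error is wide at the low times. Over the settings run, Tef was higher at ZT12 than at ZT0 and at ZT2 in each. Hlf was lower at ZT2 than at ZT0 and at ZT12 in each. As the libraries of these contrasts did not overlap, leaving out a library or another pseudocount could not turn these directions. A pseudocount of 5, which by construction shrinks low levels, gave log2 changes of 3.47 for Tef and 1.43 for Hlf for ZT12 against ZT2, and -1.25 for Hlf for ZT2 against ZT0. Removal of 1 library at a time gave, from ZT0 to ZT2, -1.07 to 0.31 for Tef and -2.33 to -1.46 for Hlf. From ZT0 to ZT12 it gave 3.41 to 4.22 for Tef and -0.22 to 0.66 for Hlf, and from ZT2 to ZT12, 3.50 to 4.89 for Tef and 1.76 to 2.48 for Hlf. The time left with 1 library takes its spread from the others.

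Counts of genes that limma called moved more, and the cause was not tested. For ZT12 against ZT0 the 79 became 124 with a filter at 5 RPKM and 51 with the replicate number as a block. For ZT12 against ZT2 the 172 became 113 with that block. With voom the counts were 9, 283 and 366 from ZT0 to ZT2, from ZT0 to ZT12 and from ZT2 to ZT12, and a pseudocount of 0.1 gave 6 for the first. Leaving out each library gave 0 to 248, 3 to 283 and 5 to 597 genes; the highest count of each came without ZT2 replicate 1, and the lowest without either ZT0 replicate, without ZT0 replicate 2 and without ZT12 replicate 2 in turn. Where limma called 0, without ZT0 replicate 1 and without ZT0 replicate 2, 516 and 425 genes had an unadjusted p under 0.05. For ZT12 against ZT0, leaving out either ZT2 library raised the count to nearly the same degree. With equal totals the median log2 change over tested genes, ZT12 against ZT2, went from 0.03 to 0.12 and the split of its calls from 89 higher and 83 lower to 112 and 66. Over the tested genes, libraries that share a replicate number did not deviate together (r of -0.076, -0.019 and 0.018). The numbers were not taken as pairs. By construction the replicate block, with 1 library of each number per time, could alter no log2 change of Tef or Hlf. It took the SE from 0.49 to 0.29 for Tef, whose replicate 1 was the higher at each time. For Hlf the SE went from 0.38 to 0.41.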
